A study of Homo sapiens with 6 samples.

Results

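The RNA exosome genes examined here were the 10 genes EXOSC1 to EXOSC10, which encode the 9 subunits of the human exosome core and the associated nuclease EXOSC10. They were taken as every probe set on the array whose annotation names one of them. This gave 26 probe sets, of which 25 name 1 gene and 1 names both EXOSC7 and its neighbour CLEC3B. Each gene is represented by its brightest probe set, judged by the average of all 6 arrays, giving 10 of the 19775 genes with a value, and the other 16 probe sets are described beside these. Expression was profiled 96 h after siRNA transfection of HCT116, an established line from a human colorectal carcinoma. The 3 arrays labelled siRNA CDK4/6 came from cells that received a CDK4 siRNA pool and 1 CDK6 siRNA at 30 nM each. The 3 arrays labelled siRNA Control came from cells that received a non-targeting pool and a negative control siRNA, also at 30 nM each. The comparison asks how these cells adapt when the G1 kinases CDK4 and CDK6 are lowered, a response in which the study's title gives MYC a part.

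The exosome is a barrel-shaped complex that degrades and trims RNA from the 3′ end in both nucleus and cytoplasm. A ring of RNase PH-like proteins (EXOSC4 to EXOSC9) and a cap of RNA-binding proteins (EXOSC1, EXOSC2 and EXOSC3) form a channel that in humans has no catalytic activity of its own, and the RNA is cut by nucleases bound to it (EXOSC10, DIS3 or DIS3L). In the nucleolus the complex matures ribosomal RNA, elsewhere in the nucleus it removes unstable transcripts, and in the cytoplasm it takes part in mRNA turnover.

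Both siRNA targets were lower in the CDK4/6 siRNA arrays. CDK6 averaged 8.84 ± 0.04 in CDK4/6 siRNA cells and 10.39 ± 0.04 in control cells, and CDK4 averaged 9.52 ± 0.12 in CDK4/6 siRNA cells and 10.21 ± 0.12 in control cells (RMA expression, log2, SD, n = 3 arrays each). MYC averaged 12.45 ± 0.05 in CDK4/6 siRNA cells and 12.04 ± 0.07 in control cells. The epithelial markers EPCAM, CDH1, KRT8, KRT18 and KRT19 were bright in both groups (KRT8 and KRT18 were called higher and CDH1 lower in CDK4/6 siRNA cells), whereas probe sets of the intestinal genes VIL1, CDX2 and LGALS4 had means of 5.09, 5.61 and 4.50 in CDK4/6 siRNA cells and 5.02, 5.57 and 4.46 in control cells. The mean level of the 8 epithelial markers lay between 9.63 and 9.64 on the CDK4/6 siRNA arrays and between 9.52 and 9.59 on the control arrays, and the 4 immune markers measured had levels of 3.83 to 5.29, averaged over all arrays. The mean of 5 fibroblast markers lay between 5.56 and 5.74 on the CDK4/6 siRNA arrays and between 5.71 and 5.84 on the control arrays, and COL1A1 among them was called lower. Across genes, arrays of 1 group correlated at 0.998 and arrays of different groups at 0.991 to 0.994. The arrays are labelled as biological replicates but not as separate cultures, so p-values here reflect array-to-array spread, which may be technical.

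Exosome subunit transcripts were higher on balance in CDK4/6 siRNA cells. Of the 10 subunits, 6 rose (limma, adjusted p under 0.05 over all genes) and 0 fell, against 26.8% of all genes called in either direction, 14.0% higher and 12.9% lower. Call rates rise with signal, so the share among the 6642 genes at least as bright as the dimmest subunit is the closer background, and there 49.8% were called, 27.4% higher and 22.4% lower. The median log2 fold change of the 10 subunits was 0.27, beside -0.0011 over all genes and 0.012 over those 6642. The rise was largest for EXOSC4 (1.85-fold), EXOSC2 (1.62-fold), EXOSC6 (1.59-fold) and EXOSC3 (1.45-fold), smaller for EXOSC1 (1.23-fold) and EXOSC5 (1.15-fold), and did not pass for EXOSC7, EXOSC8, EXOSC9 and EXOSC10. In 9 of the 10 the lowest CDK4/6 siRNA array lay above the highest control array, for EXOSC7 by only 0.0038. Over all genes the groups were separate, in either direction, in 40.9%. That share was not computed for the 6642 brighter genes, so the closer background is missing for this count. In RNA from whole cultures, more transcript per cell and more cells expressing a gene cannot be told apart. Fold changes are given on the log2 scale, CDK4/6 siRNA cells over control cells, unless marked as a ratio (1.85-fold).

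**Figure D1:**
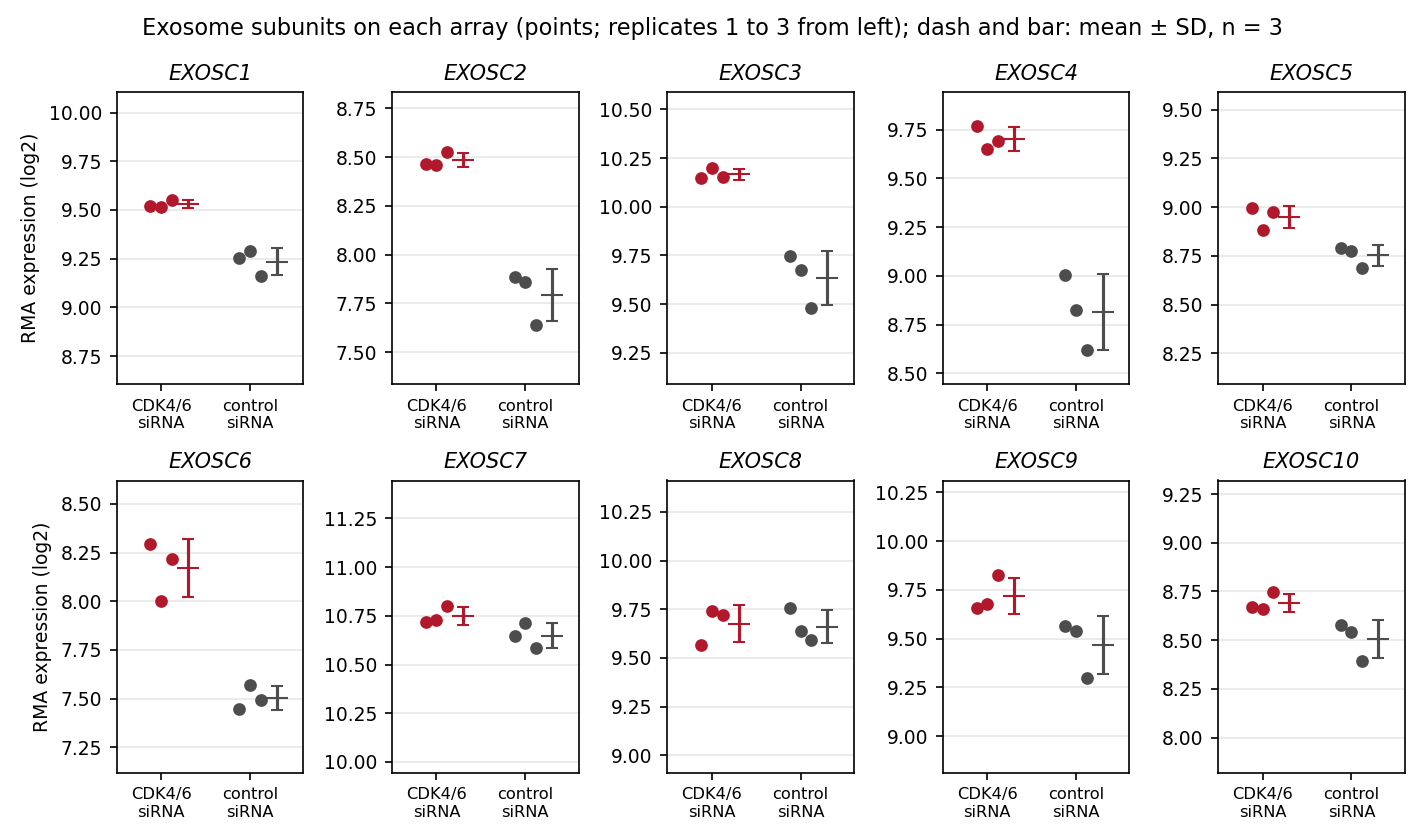
RMA expression (log2, y axis) of the 10 exosome subunits on each array, with the CDK4/6 siRNA arrays in red and the control siRNA arrays in grey; points are replicates 1 to 3 from left to right, and the dash and bar give the mean ± SD (n = 3). Every panel spans the same height, so that distances can be compared: the groups lie farthest apart for EXOSC4 (0.89) and overlap only for EXOSC8 (0.01).

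1 array bears on the size of these differences. Control replicate 3 was the lowest of the 3 controls for 9 of the 10 subunits, as it was for 68.6% of all genes called higher and 40.1% of all genes. Without it, EXOSC4 gave 0.79, EXOSC2 0.61, EXOSC6 0.66, EXOSC3 0.46 and EXOSC1 0.26, and these 5 stayed past the threshold, whereas EXOSC5 gave 0.17 and did not (limma adjusted p = 0.100). The hybridisation spike-ins, RNAs meant to be added in equal amount to every hybridisation, averaged 10.15 on the CDK4/6 siRNA arrays and 10.25 on the control arrays. Their values were read after RMA normalisation, and they do not measure the amount of RNA per cell. Scaling the arrays to them moved the median of all genes to 0.11, the share of called genes that were higher to 78.2% against 52.0% as deposited, and the number of subunits called higher to 9. The values that follow keep the deposited normalisation and so stand relative to the average gene.

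The region before the transcription start is shown for 3 subunits picked by their difference between groups. EXOSC2 had a large rise, EXOSC5 a small one and EXOSC8 the smallest difference. Their motifs do not stand for those of the other subunits. Promoter sequences from RefSeq (GRCh38.p14) were matched for 8 of the 10 genes. EXOSC1 and EXOSC4 were without one, so the subunit with the largest rise was not searched. The 250 bases before the annotated start are printed 5′ to 3′ on the gene's strand, which covers chr9:130693510-130693759 on the plus strand for EXOSC2, chr19:41397360-41397609 on the minus strand for EXOSC5 and chr13:37000536-37000785 on the plus strand for EXOSC8. Capitals mark matches to the motifs CCAAT (and its reverse complement, ATTGG) and CACGTG.
EXOSC2: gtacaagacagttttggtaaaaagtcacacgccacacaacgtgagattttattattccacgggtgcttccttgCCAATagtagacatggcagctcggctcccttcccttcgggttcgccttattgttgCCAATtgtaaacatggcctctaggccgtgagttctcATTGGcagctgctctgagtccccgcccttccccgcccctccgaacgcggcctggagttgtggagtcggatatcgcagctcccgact
EXOSC5: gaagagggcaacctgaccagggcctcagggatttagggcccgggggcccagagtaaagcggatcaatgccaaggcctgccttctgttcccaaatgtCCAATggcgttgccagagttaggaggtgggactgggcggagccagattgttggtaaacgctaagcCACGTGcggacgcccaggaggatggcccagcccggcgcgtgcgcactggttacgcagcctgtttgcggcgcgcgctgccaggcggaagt
EXOSC8: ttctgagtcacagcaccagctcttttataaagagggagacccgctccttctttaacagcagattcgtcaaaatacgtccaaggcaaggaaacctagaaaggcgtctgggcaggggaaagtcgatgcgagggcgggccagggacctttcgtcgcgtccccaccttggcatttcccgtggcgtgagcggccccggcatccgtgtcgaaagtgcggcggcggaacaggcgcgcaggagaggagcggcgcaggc
CACGTG, the palindromic E-box that MYC and MAX are known to bind, was found within this window in 1 of the 8 promoters, that of EXOSC5, where it begins 89 bases before the start. Among 15384 promoters of measured genes, 7.83% held it. CCAAT, the box bound by NF-Y, was found on either strand in EXOSC2 (3 times), EXOSC5, EXOSC9 and EXOSC10, against 34.1% of all promoters. It was thus present in 2 of the 4 searched subunits called higher and in 2 of the 4 not called. EXOSC3 and EXOSC6, which also had large rises, held none of the motifs searched. Searches on both strands for TTTNGCGC (an E2F site, in 1.98% of all promoters) and for CCGGAAG (an ETS site, in 12.0%) found no match in the 8 windows. The motifs searched did not overlap each other in the printed sequences. These matches describe letters in a window and not binding.

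The 3 cap subunits, which carry S1 or KH type RNA-binding domains and guide RNA towards the channel, all rose. EXOSC2 had 8.47, 8.46 and 8.53 on the CDK4/6 siRNA arrays, against 7.88, 7.86 and 7.64 on the control arrays. The CDK4/6 siRNA values lay within 0.1 of each other and well above all controls, of which replicate 3 was the lowest. The log2 fold change was 0.69 (SE 0.073, limma adjusted p = 0.000256). EXOSC3 had 10.15, 10.20 and 10.15 in CDK4/6 siRNA cells, against 9.75, 9.67 and 9.48 in control cells, a difference of 0.53 (SE 0.075, adjusted p = 0.000932). EXOSC1 had 9.52, 9.52 and 9.55 in CDK4/6 siRNA cells, against 9.25, 9.29 and 9.16 in control cells, a difference of 0.29 (SE 0.057, adjusted p = 0.00478). Groups were separate for all 3 genes, as they were, in either direction, for 40.9% of all genes. Of the genes at least as bright as the dimmest subunit, 27.4% were called higher.

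Most further probe sets of EXOSC2 and EXOSC3 gave positive values, and the dim ones of EXOSC1 lay near 0. The second EXOSC2 probe set, 214507_s_at, with a mean level of 8.06, gave 0.76 (SE 0.089, limma adjusted p = 0.000536 over all probe sets), while the dim 216117_at gave -0.17 at a mean level of 5.02 and did not pass. EXOSC3 has 6 probe sets, and all 6 gave positive values between 0.30 and 0.61, with 5 past the threshold. The exception was 227912_s_at (0.32, adjusted p = 0.0617). That the probe set standing for EXOSC3 carries the suffix _x_ means that some of its probes can match other transcripts. The probe set 223490_s_at, which carries the suffix _s_ instead, gave 0.61. The EXOSC3 probe sets with no such suffix, 227913_at and 233495_at, were dim, with mean levels of 5.06 and 4.36. They gave 0.30 and 0.49. EXOSC1 rests on 1 bright probe set, 222609_s_at. Its other 2 were dim, with mean levels of 3.99 and 3.98, and neither passed, at -0.071 and 0.0061.

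The ring is built from 3 pairs of RNase PH-like subunits, EXOSC4 with EXOSC9, EXOSC6 with EXOSC7 and EXOSC5 with EXOSC8. On the brightest probe sets 1 member of each pair was called higher and its partner did not pass the threshold. This split depends on the threshold, since EXOSC9, not called, changed by more (0.25) than EXOSC5, called (0.20). Of the genes at least as bright as the dimmest subunit, 27.4% were called higher. In the first pair, EXOSC4 had 9.77, 9.65 and 9.69 in CDK4/6 siRNA cells, against 9.01, 8.82 and 8.62 in control cells. Its difference of 0.89 (SE 0.094, limma adjusted p = 0.000250) was the largest of the 10 and exceeded that of 99.6% of all genes. All 3 EXOSC4 probe sets were bright, and the other 2, 218695_at and 91684_g_at, gave 0.97 and 0.88 (adjusted p = 0.000167 and 0.000183 over all probe sets). Its partner EXOSC9, measured by 1 probe set, had 9.66, 9.68 and 9.83 in CDK4/6 siRNA cells, against 9.57, 9.54 and 9.30 in control cells. The groups were separate, and the difference of 0.25 (SE 0.084, adjusted p = 0.0568, 95% interval 0.06 to 0.44) narrowly missed the threshold. Without control replicate 3, the lowest EXOSC9 value, it was 0.17.

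In the second pair, EXOSC6 had 8.29, 8.00 and 8.22 in CDK4/6 siRNA cells, against 7.45, 7.57 and 7.49 in control cells. Replicate 2 was the lowest CDK4/6 siRNA array and still lay 0.43 above the highest control. The log2 fold change was 0.67 (SE 0.080, limma adjusted p = 0.000458), and the 2 other EXOSC6 probe sets gave 0.51 and 0.34 and passed as well. EXOSC7 depended on the probe set. Its brightest, 212627_s_at, had 10.72, 10.73 and 10.80 in CDK4/6 siRNA cells, against 10.65, 10.71 and 10.59 in control cells, a difference of 0.10 (SE 0.059, adjusted p = 0.264). The groups there are separated by only 0.0038. The second, 213648_at, had 7.66, 7.58 and 7.57 in CDK4/6 siRNA cells, against 6.88, 6.78 and 6.72 in control cells, a difference of 0.81 (SE 0.067, adjusted p = 0.000156 over all probe sets). This was the fourth largest value among the 26 probe sets, on a gene not called by its brightest one. The probe set shared with CLEC3B was dim (mean level 5.25) and gave -0.034. The transcripts that the bright and the second EXOSC7 probe set read were not analysed here.

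In the third pair the changes were small. EXOSC5 had 8.99, 8.88 and 8.97 in CDK4/6 siRNA cells, against 8.79, 8.78 and 8.69 in control cells. The difference of 0.20 (SE 0.059) passed over genes (limma adjusted p = 0.0356) but not over all probe sets (adjusted p = 0.0689). EXOSC8 had 9.57, 9.74 and 9.72 in CDK4/6 siRNA cells, against 9.76, 9.64 and 9.59 in control cells. It was the only subunit whose groups overlapped, with CDK4/6 siRNA replicate 1 below all controls. Its difference was 0.01 (SE 0.071, adjusted p = 0.918), and the 95% interval of the ratio, 0.904 to 1.13, leaves out changes of the size seen for EXOSC4. EXOSC5 and EXOSC8 are measured by 1 probe set each. Whether partners of a pair changed by different amounts was not tested.

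**Figure D2:**
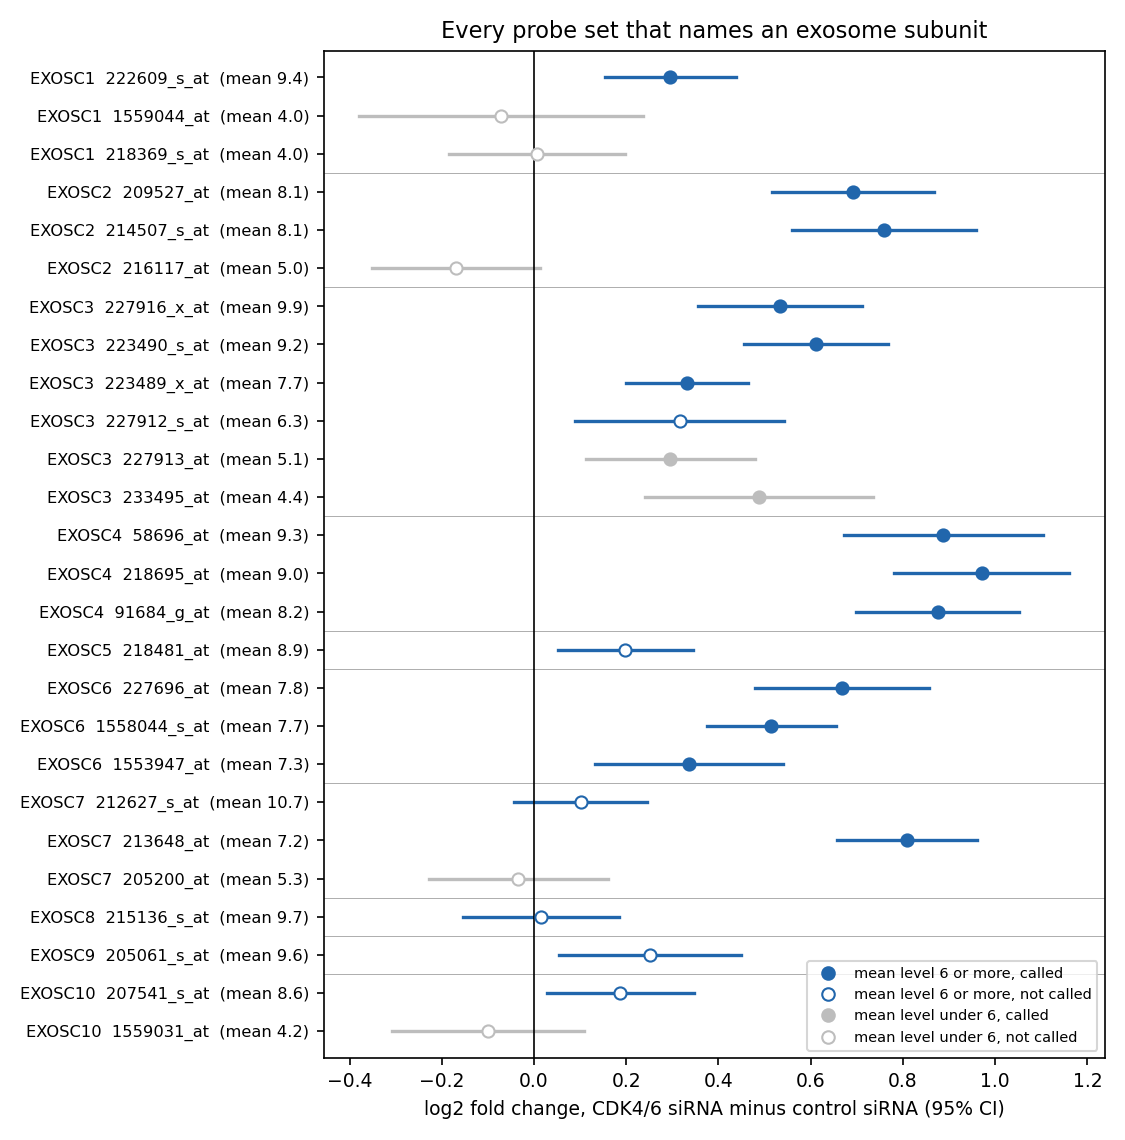
Log2 fold change with its 95% confidence interval (x axis, CDK4/6 siRNA minus control siRNA, n = 3 arrays each) for each of the 26 probe sets, ordered by gene and, within a gene, by mean level. Filled points passed an adjusted p of 0.05 over all probe sets and grey points have a mean level under 6; all 3 EXOSC4 probe sets lie together between 0.88 and 0.97, whereas those of EXOSC7 are spread between -0.034 and 0.81.

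Of the 19 exosome probe sets with a mean level of 6 or more, 13 were called higher and 0 lower, beside 19.1% called higher and 16.1% lower among the 21702 probe sets of the array at such levels. Of the 7 dimmer ones 2 were called higher, both of EXOSC3. Over all probe sets of the array, of which 60.2% lie under 6, 8.86% were called higher. Several of the exosome probe sets read the same gene on the same arrays, so these counts are not counts of separate members.

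Of the 3 nucleases that bind the core, 1 was called higher on its brightest probe set, the cytoplasmic DIS3L. Of the genes at least as bright as the dimmest subunit, 27.4% were called higher. Whether the nucleases changed by different amounts was not tested. DIS3L, the processive exonuclease of the cytoplasmic exosome, had 8.44, 8.23 and 8.41 in CDK4/6 siRNA cells, against 8.00, 7.83 and 7.76 in control cells, a difference of 0.49 (SE 0.081, limma adjusted p = 0.00215). EXOSC10, the distributive exonuclease enriched in the nucleolus, had 8.67, 8.66 and 8.75 in CDK4/6 siRNA cells, against 8.58, 8.54 and 8.39 in control cells. The groups were separate by 0.080, and the difference of 0.19 (SE 0.066, adjusted p = 0.0674, 95% interval 0.04 to 0.34) did not pass. The other EXOSC10 probe set is dim (mean level 4.16) and gave -0.10. DIS3, the processive nuclease of the nuclear exosome, had 9.78, 9.85 and 9.88 in CDK4/6 siRNA cells, against 9.76, 9.75 and 9.90 in control cells. Its groups overlapped, with a difference of 0.04 (SE 0.063, adjusted p = 0.753, 95% interval -0.11 to 0.18). Of 4 further DIS3 probe sets, 218362_s_at, at a mean level of 6.06, passed with 0.29, and the others gave between -0.089 and 0.19.

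Among cofactors that bring RNA to the exosome, the number of calls depended on the scaling. Of 16 measured nuclear cofactor genes 4 rose and 1 fell, with a list median of 0.11. Beside this, 26.8% of all genes were called, and 49.8% of those at least as bright as the dimmest subunit. With spike-in scaling 9 were higher and 1 lower, and without CDK4/6 siRNA replicate 2, CDK4/6 siRNA replicate 3 or control replicate 3 only 3 were called. NCBP1, the large subunit of the nuclear cap-binding complex, averaged 9.11 ± 0.03 in CDK4/6 siRNA cells and 8.50 ± 0.10 in control cells (SD, n = 3 each), a difference of 0.62. WDR74, which works with the ATPase NVL in ribosome assembly, rose by 0.40. The small-subunit assembly factor UTP18, which in yeast recruits the exosome's helicase to pre-ribosomes, rose by 0.22. NVL itself rose by 0.28 (adjusted p = 0.0362) and is added to complete the 4. The poly(A) polymerase TENT4A, which can tail exosome substrates, fell by 0.33. MTREX, the RNA helicase common to the nuclear adaptor complexes, had a mean of 10.29 in CDK4/6 siRNA cells and 10.20 in control cells and did not pass (0.09, adjusted p = 0.269); it was added after its value was seen.

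Of the 7 genes of the Ski complex and other cytoplasmic cofactors, 1 rose and 1 fell. The share called was 26.8% over all genes and 49.8% over those at least as bright as the dimmest subunit. The list median was -0.035, and with spike-in scaling 1 gene of the list was higher and 0 were lower. SKIC8, the WD-repeat subunit of the Ski complex, which feeds mRNA into the cytoplasmic exosome, rose by 0.43, and AUH, which binds AU-rich RNA and also has an enzymatic role in leucine breakdown, fell by 0.29. The other Ski subunits, named after their values were seen, did not pass: SKIC2, the helicase, gave 0.07 and SKIC3 gave -0.22 (adjusted p = 0.649 and 0.134). For SKIC8, 3 of its 5 probe sets passed, at 0.43, 0.46 and 0.34.

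The other 3′ to 5′ exoribonucleases moved in both directions. Of 16 genes, 8 rose and 4 fell. Over all genes 14.0% were called higher and 12.9% lower. Among genes at least as bright as the dimmest subunit these shares were 27.4% and 22.4%. The list median was 0.26, and with spike-in scaling 10 of the list were higher and 3 lower. REXO2, an oligoribonuclease active in mitochondria, rose by 0.67, TOE1, which trims small nuclear RNAs, by 0.61, PDE12, which removes mitochondrial poly(A) tails, by 0.59, and ISG20L2, which trims the 3′ end of 5.8S ribosomal RNA, by 0.57 (limma adjusted p between 0.000129 and 0.000378). Those lower were ISG20 (-0.67), PAN2 (-0.59), ERI1 (-0.32) and REXO5 (-0.23), named after their values were seen. Second bright probe sets of REXO2, PDE12 and ISG20L2 also passed, at 0.47, 0.60 and 0.56.

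Genes of the other mRNA decay routes moved in both directions. Beside the counts that follow, 26.8% of all genes were called, and 49.8% of those at least as bright as the dimmest subunit. Of 18 genes of 5′ to 3′ decay and decapping, 4 rose and 3 fell, with a median of 0.034, and with spike-in scaling 6 were higher and 1 lower. The decapping coactivator DCP1A fell by 0.39 and the scaffold PATL1 by 0.27, while LSM1 and LSM3, which belong to the ring that binds shortened mRNA tails, rose by 0.31 and 0.23. The second PATL1 probe set, at a mean level of 7.40, gave -0.097 and did not pass. The remaining called genes of this list, named after their values were seen, were the exonuclease XRN2 (0.20), LSM4 (0.21) and the decapping enzyme DCP2 (-0.21). Of 11 genes of the CCR4-NOT complex, which shortens poly(A) tails, 2 rose and 4 fell, with a median of -0.054, and with spike-in scaling 3 were higher and 2 lower. Among its nucleases CNOT6L and CNOT8 fell by 0.64 and 0.46. CNOT2 fell by 0.29 and CNOT11 rose by 0.28. The scaffold CNOT1 (-0.22) and CNOT10 (0.22), named after their values were seen, complete the 6. The nucleases CNOT6 (-0.054) and CNOT7 (-0.046), also named after their values were seen, did not pass (limma adjusted p = 0.537 and 0.616). The differences between these lists and the exosome subunits were not tested, and the lists were chosen with earlier results of these data known.

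**Figure D3:**
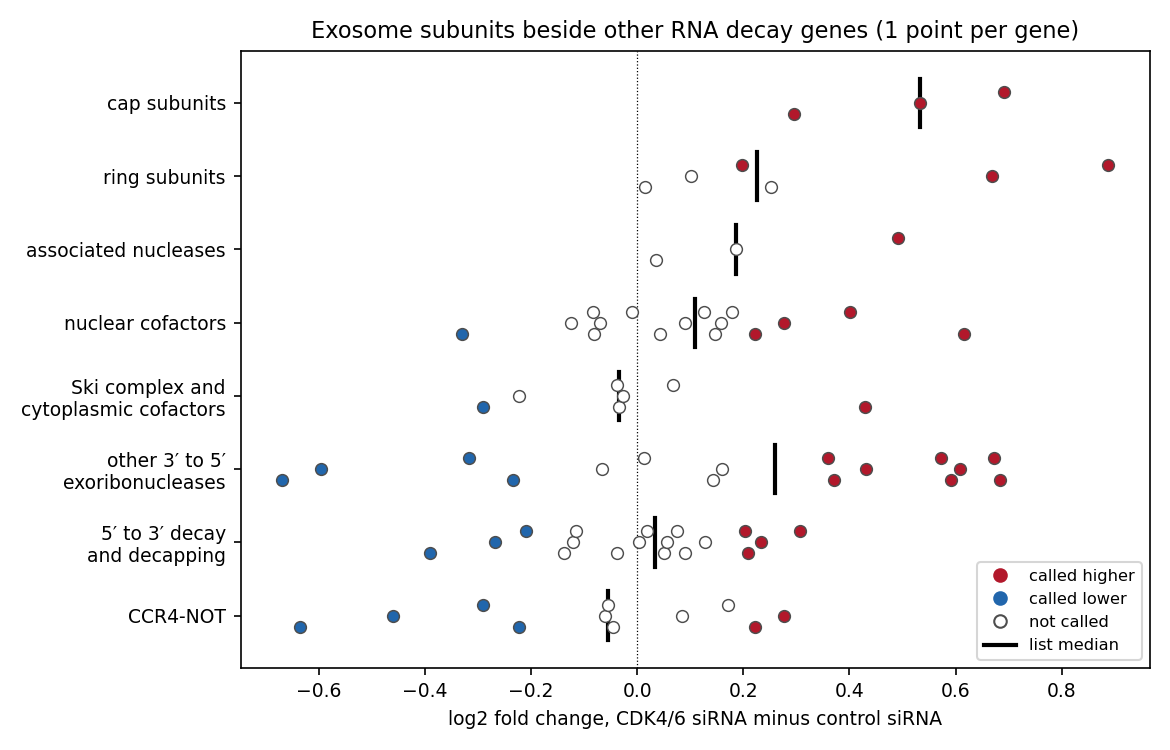
Log2 fold change (x axis, CDK4/6 siRNA minus control siRNA, n = 3 arrays each) of each gene of the exosome and of other RNA decay lists, 1 point per gene, coloured by call, with the list median as a bar; vertical offsets within a list only separate points. All 10 EXOSC points, of which EXOSC10 stands among the associated nucleases, lie above 0, EXOSC8 by only 0.01. Over all genes 49.7% lie above 0. The CCR4-NOT median is -0.054.

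The 5 genes outside these lists whose values on the 6 arrays followed the mean profile of the 10 subunits most closely were HNRNPU, AAGAB, FTSJ3, MTARC1 and AK1, with Pearson r of 0.999 each over 6 arrays. The arrays fall into 2 groups of 3, so that r mostly reads the difference between groups, and 2495 of 19672 genes had r above 0.9. The log2 fold changes were 0.33 for HNRNPU, 0.56 for AAGAB, 0.92 for FTSJ3, 0.76 for MTARC1 and 0.36 for AK1. The mean of the 10 subunits was 9.38, 9.35 and 9.42 on the CDK4/6 siRNA arrays, against 9.07, 9.04 and 8.89 on the control arrays.

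The subunits differed in how far their calls depended on the processing. EXOSC2, EXOSC3, EXOSC4 and EXOSC6 were called higher under each of 17 alternatives. EXOSC5 was called in 8 of them. Of the subunits not called above, EXOSC9 was called in 5 of 16, EXOSC10 in 4 of 17, EXOSC7 in 3 of 17 and EXOSC8 in 0 of 16. EXOSC10 gave 0.30 with spike-in scaling, where it passed, and 0.044 with all its probe sets averaged, where it did not. EXOSC7 passed with spike-in scaling (0.21), with all its probe sets averaged (0.29) and on 213648_at alone. EXOSC1 lost its call when all its probe sets were averaged (0.077) or when the analysis was limited to probe sets whose name lacks the suffixes _s_, _x_ and _a_ (-0.071). Averaging all probe sets of a gene also lowered EXOSC2 to 0.43, limiting the names lowered EXOSC3 to 0.30, and spike-in scaling raised EXOSC5 to 0.31.

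**Figure D4:**
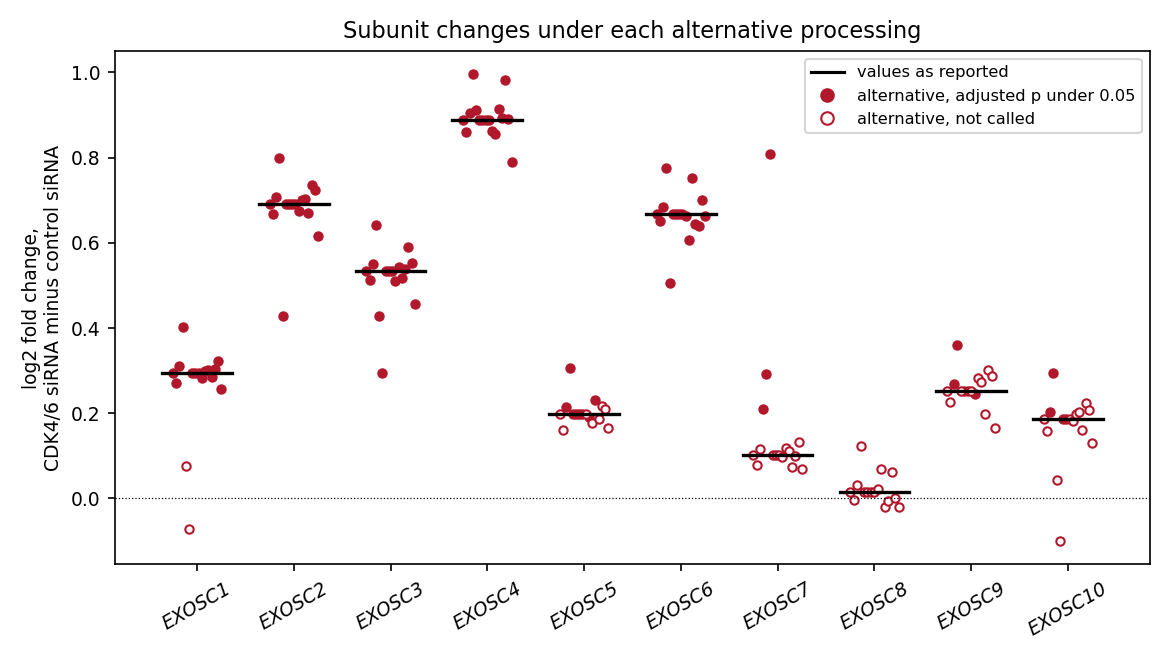
Log2 fold change (y axis, CDK4/6 siRNA minus control siRNA) of each subunit as reported (black line) and under each alternative other than the stricter threshold (points, filled where the adjusted p was under 0.05). EXOSC4 stays between 0.79 and 1.00, and the value of EXOSC7 at 0.81 is that of 213648_at, whose name lacks such a suffix.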

How the data were processed

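RNA was hybridised to 6 Affymetrix 3′ expression arrays. The deposited values are log2 RMA expression made by the authors, per the submitters' processing notes; the version is not given in the sources used here. RMA, a method of background correction, quantile normalisation and probe set summary, equalises the arrays, so a change in total RNA cannot be seen, and it shrinks fold changes at low signal. Precision is limited by having 3 arrays in each group. Detection calls were not used.

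Of 54675 probe sets, 62 were controls. The platform annotation gives 41097 probe sets 1 symbol, 1801 several and 11777 none. A gene takes its brightest probe set with 1 symbol (for the subunits, several were allowed). The fit used limma 3.58.1 (lmFit, eBayes; R 4.3.3) with siRNA group and no covariate, on all values without a filter. P-values were adjusted by Benjamini-Hochberg over 19775 genes, or over 54613 probe sets. The threshold was an adjusted p of 0.05. Members, lists and alternatives were chosen with earlier results of these data known. Outside the subunits, CDK4, CDK6, MYC and the nucleases, the text names up to 4 called genes per list by adjusted p, and says where it adds others. The fit was tested on simulated data. Alternatives changed the normalisation, the probe sets used, the filter, the variance model, the threshold and the arrays included. Some listed genes were not analysed here.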

Additional observations from a re-analysis of the deposited data

How the results depend on the processing

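Of 168 subunit values under 17 alternatives, 140 kept direction and call, 11 lost a call, 12 gained one and 6 changed sign; the loss for EXOSC1 without suffixes is also 1 of the sign changes, and 0 of the 6 were past the threshold. The sign changed for EXOSC8 with quantile normalisation repeated (-0.0039) and without CDK4/6 siRNA replicate 2 (-0.019), CDK4/6 siRNA replicate 3 (-0.0067) or control replicate 3 (-0.020; range -0.020 to 0.070 with 1 array left out), and on probe sets named without a suffix, which are dim for both, for EXOSC1 (-0.071) and EXOSC10 (-0.10). The number of subunits called higher was 5 to 9 over the alternatives, with 0 lower in each; it was 5 with the replicate block, which moved the genes called to 4738, and 5 to 6 with 1 array left out. EXOSC5 lost its call with the block (adjusted p = 0.0714), with quantile normalisation repeated, without variance moderation, at a threshold of 0.01 and without any 1 of 5 arrays. Deviations of same-numbered arrays correlated at -0.010, -0.12 and -0.0066, so the numbers were not taken as pairs.

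Under spike-in scaling, 10 nuclear cofactors (9 higher), 1 Ski or cytoplasmic cofactor and 2 associated nucleases were called. The nucleases also came to 2 with median centring, without the dimmest 25% of genes and with trend and robust options. The mean of all probe sets called 5 Ski or cytoplasmic cofactors. Names without a suffix called 3 nuclear cofactors and 3 CCR4-NOT genes. At a threshold of 0.01, 3326 genes, 3 nuclear cofactors, 2 genes of 5′ to 3′ decay and 3 CCR4-NOT genes were called. With 1 array left out, 4225 to 4726 genes, 3 to 5 nuclear cofactors and 4 to 6 genes of 5′ to 3′ decay were called; the fewest came without CDK4/6 siRNA replicate 2, replicate 3 or control replicate 3 for nuclear cofactors, and without CDK4/6 siRNA replicate 3 for 5′ to 3′ decay. The cause of these shifts was not tested.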
